A study of Mus musculus with 16 samples.

Results

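The 9 genes Hoxb13, Foxa1, Krt8, Krt18, Krt19, Krt7, Krt5, Krt14 and Trp63, which mark the luminal and basal layers of prostate epithelium, were followed across tumours of B6MyC-CaP cells. They were taken by name, as 9 of the 55414 gene IDs in the count table. Hoxb13 and Foxa1 are lineage transcription factors, Krt8, Krt18, Krt19 and Krt7 are keratins of simple, luminal-type epithelium, and Krt5, Krt14 and Trp63 mark basal cells. The cells come from the Hi-MYC mouse, in which a modified probasin promoter drives MYC in prostate epithelium, on a C57BL/6 background, and the tumours were subcutaneous grafts in male C57BL/6 hosts aged 6 weeks at implantation. ADF+ENZ mice were fasted for 24 h and then fed freely for 24 h in alternation, and also received enzalutamide, an androgen receptor antagonist, at 20 mg/kg by gavage once a day. ADF mice had the alternate-day fasting without the drug, ENZ mice had the same daily dose with free access to chow, and Vehicle mice had chow freely and no enzalutamide. There were 4 tumours per group. Every group carries the same transgene and the same single cell line, so the tumours do not represent separate cancers. The labels do not say that each tumour came from its own mouse or whether it was collected on a fasting or a feeding day, so each p-value reflects only how far these samples spread.

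In the prostate, HOXB13 and FOXA1 bind DNA beside the androgen receptor, FOXA1 as a factor that opens chromatin and HOXB13 as a homeobox factor of the posterior body. Keratin filaments are built from pairs of a type II and a type I keratin. KRT8, with KRT7 as another type II chain, pairs with KRT18 or KRT19 in luminal cells, and KRT5 pairs with KRT14 in basal cells, where the transcription factor p63, the product of Trp63, maintains the basal programme. These are bulk libraries, so fewer cells of a type and less RNA per cell cannot be told apart.

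Gene counts per library ran from 10072489 to 25505655. Levels are given as CPM, counts scaled to library size, after TMM scaling, which corrects for differences in library composition. Reads in no annotated feature made up 30.3% to 36.7% of reads in the ADF libraries, against 21.2% to 27.9% in the other 12, so ADF tumours differ from the rest in library make-up as well as in treatment. ADF+ENZ replicate 3 stood apart, with the lowest gene count, the highest share of unaligned reads (16.7%) and a first principal component of 35.1, where the other 15 libraries lay between -19.1 and 16.9. The labelled prostate origin was checked in markers looked up for that purpose. Pbsn, the probasin gene, a secretory gene of the prostate, had 0 counts in all 16 libraries. Epcam and Cdh1, which mark epithelium, averaged 0.42 and 2.39 CPM, and Vim, the mesenchymal intermediate filament gene, averaged 2816 CPM. In the same libraries the luminal genes Steap2 and Krt8 averaged 82.9 and 501 CPM. The fibroblast marker Col3a1 averaged 3472 CPM, and bulk libraries do not show which cells the Vim RNA came from.

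The lineage factors and the Krt8/Krt18 pair passed the test in no comparison, whereas Krt7 and Trp63 passed in some. Krt19, Krt7 and Trp63 had their lowest group means in ADF+ENZ tumours. So did Hoxb13 (7.69 CPM), Foxa1 (42.5) and Krt8 (456.5). Whether the genes that passed differed from those that did not was not tested. Krt5 and Krt14 were almost undetected and could not be tested. A gene passed when its adjusted p in edgeR's quasi-likelihood test, with Benjamini-Hochberg adjustment over 18946 genes, was under 0.05. Of the 9 genes 7 had enough counts for the test. Krt19 passed that filter only through its Vehicle level and so had to differ, and the counts that follow are over the other 6 genes, with Krt19 described by itself. In ADF+ENZ against Vehicle Krt7 and Trp63 fell and none of the 6 rose, where 12.5% of all genes tested passed in either direction. In ADF against Vehicle, where 9.01% of genes passed, and in ENZ against Vehicle, where 5.43% passed, 0 of the 6 passed in edgeR, DESeq2 or limma-voom, with Krt7 in ENZ against Vehicle alone at an unadjusted edgeR p under 0.05 (0.0298). In ADF+ENZ against ADF Trp63 alone fell, where 16.3% passed. For ADF+ENZ against ENZ 0 of the 6 passed in edgeR, DESeq2 or limma-voom, 0 had an unadjusted edgeR p under 0.05, and 1.09% of all genes passed. These 5 comparisons share libraries, 3 of them all 4 Vehicle libraries, and so are not independent of each other.

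Averaged over both diets, the enzalutamide effect (the mean of ENZ minus Vehicle and ADF+ENZ minus ADF, on the log2 scale) passed for Krt7 and Trp63, both lower, where 17.3% of all genes passed. The average fasting effect passed for 0 of the 6 in edgeR, DESeq2 and limma-voom, with Krt7 nearest at an unadjusted edgeR p of 0.05, where 5.06% of all genes passed. The interaction, which asks whether the change with fasting under enzalutamide differs from that without it, also passed for 0 of the 6 in the same tools, with 0 at an unadjusted edgeR p under 0.05, where 3.1% passed. Its smallest adjusted p was 0.246, for Krt18. Krt19 did not pass for either effect in edgeR or limma-voom (edgeR adjusted p of 0.0879 and 0.786), and DESeq2 gave it no adjusted p there or in ADF+ENZ against ENZ.

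**Figure D1:**
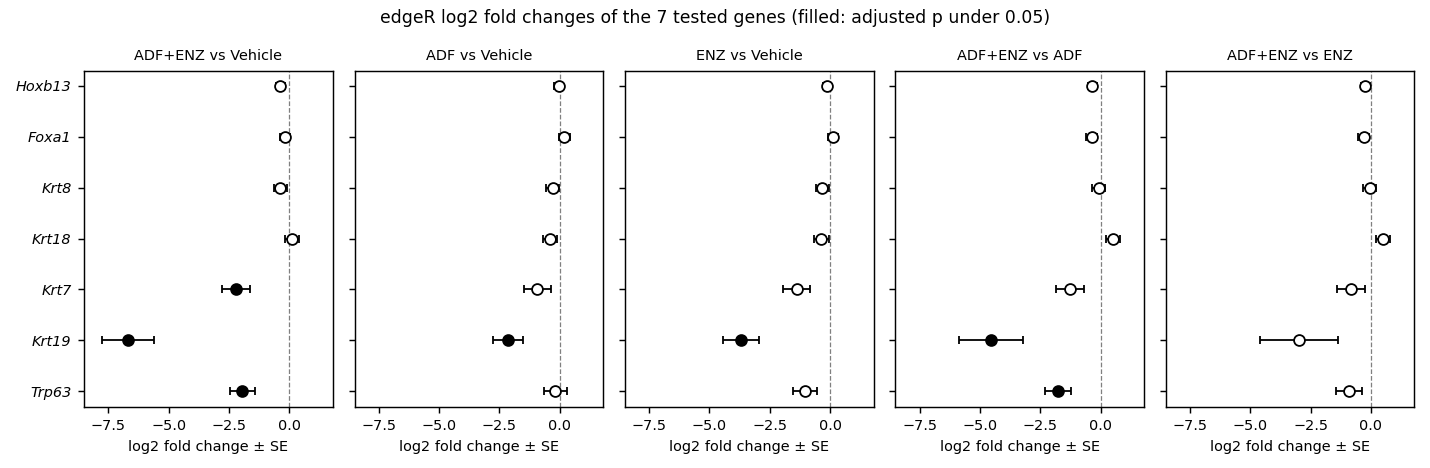
Log2 fold change (x axis, with bars of 1 standard error) of the 7 tested genes (y axis) in 5 pairwise comparisons, 4 tumours per group. Filled points passed at an adjusted p under 0.05, and they are Krt19, Krt7 and Trp63, at most 3 per comparison, while Hoxb13, Foxa1, Krt8 and Krt18 lie between -0.39 and 0.52.

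Promoter windows from RefSeq (GRCm38.p6, an earlier build than the mm39 named for the counts) were held for 6 of the 9 genes and cover 250 bases before and 50 after the annotated start. Krt8, Krt18 and Krt7 are shown because Krt8 and Krt18 are the partner pair that passed in no comparison and Krt7 is the type II chain that fell. They lie on chromosome 15, Krt8 at chr15:102004293-102004592 on the minus strand, Krt18 at chr15:102027966-102028265 on the plus strand and Krt7 at chr15:101412153-101412452 on the plus strand. Each is written 5′ to 3′ on the gene's own strand, and capitals mark a match to any of 4 motifs searched on both strands.
Krt8: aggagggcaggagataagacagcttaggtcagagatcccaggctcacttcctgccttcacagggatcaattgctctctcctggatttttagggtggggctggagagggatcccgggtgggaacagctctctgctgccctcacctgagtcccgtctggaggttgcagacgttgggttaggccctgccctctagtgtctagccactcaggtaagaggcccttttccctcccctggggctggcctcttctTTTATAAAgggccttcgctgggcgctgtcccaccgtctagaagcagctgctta
Krt18: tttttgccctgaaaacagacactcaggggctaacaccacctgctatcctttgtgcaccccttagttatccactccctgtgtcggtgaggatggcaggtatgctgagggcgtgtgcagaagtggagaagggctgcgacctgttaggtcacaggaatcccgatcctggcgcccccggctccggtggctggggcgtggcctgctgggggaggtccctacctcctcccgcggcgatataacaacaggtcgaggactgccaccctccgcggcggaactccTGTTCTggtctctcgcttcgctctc
Krt7: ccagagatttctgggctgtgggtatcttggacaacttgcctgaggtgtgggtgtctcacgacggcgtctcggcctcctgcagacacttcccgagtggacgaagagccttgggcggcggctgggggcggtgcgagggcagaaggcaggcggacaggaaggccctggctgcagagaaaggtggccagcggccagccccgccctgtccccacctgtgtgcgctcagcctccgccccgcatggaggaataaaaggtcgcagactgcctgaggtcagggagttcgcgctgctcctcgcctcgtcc
The androgen receptor half-site was searched as AGAACA and occurred in 19% of 32851 windows of this length. The forkhead motif, searched as TGTTTAC, occurred in 3.65%. The TATA box, searched as TATAAA, occurred in 13.6%. The E-box, searched as CACGTG, occurred in 7.15%. In Krt8 the capitals are TATA-box letters read on both strands, where the overlapping matches begin at position -3 from the annotated start. In Krt18 they are a half-site match that begins 25 bases after the start. Krt7 held none of the 4, nor did Krt5 and Krt14, and the Foxa1 window held a forkhead match. A match of this kind is a description of letters, not a site at which a factor was measured.

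Per kilobase of exon, which allows levels of different genes to be compared, Krt8 stood highest with a mean of 256 CPM per kb over the 16 libraries. Krt18 followed with 84.1, and then Foxa1 with 14.9 and Krt7 with 12.8. Hoxb13 averaged 4.15 CPM per kb, Trp63 0.579, Krt19 0.438, Krt14 0.00887 and Krt5 0.00275. Foxa1 and Krt7 were not separated by this order, because Krt7 moved to 21.96 and Foxa1 to 15.5 CPM per kb when the longest coding transcript, 4094 bases for Krt7 rather than the 7049 of its joined exons, was taken as the length (a choice made after seeing the data). Trp63 and Krt19 also overlapped across libraries.

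**Figure D2:**
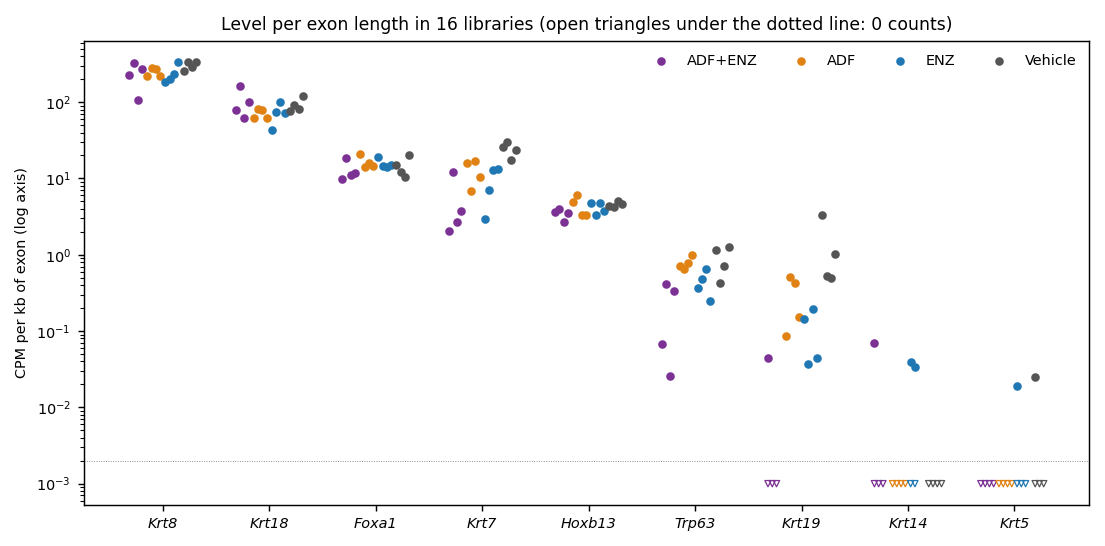
Level per exon length (CPM per kb, log axis) of the 9 genes in 16 libraries, coloured by group. Krt8 and Krt18 lie above the other genes in every library, Krt19, Krt14 and Krt5 include libraries at 0 counts (open triangles below the dotted line), and Krt7, Trp63 and Krt19 spread the most between groups.

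Hoxb13, the posterior homeobox factor, was detected in all 16 libraries with at least 10 counts in each. It stood at 8.09, 8.89, 5.92 and 7.88 CPM in ADF+ENZ tumours, at 10.95, 13.2, 7.40 and 7.38 in ADF, at 10.5, 7.37, 10.5 and 8.31 in ENZ and at 9.63, 9.20, 11.1 and 10.1 in Vehicle. The ADF+ENZ values all lay below the Vehicle values, by a narrow margin between 8.89 and 9.20 CPM, and the other groups overlapped. Of 18946 genes tested, 3269 had groups that did not overlap in ADF+ENZ against Vehicle. The log2 fold change of Hoxb13 in ADF+ENZ against Vehicle was -0.37 ± 0.185 (SE), with an adjusted p of 0.202. Against Vehicle it was -0.03 ± 0.182 in ADF and -0.13 ± 0.182 in ENZ, with adjusted p of 0.929 and 0.746. ADF libraries spread the most, from 7.38 to 13.2 CPM.

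Foxa1, the chromatin-opening forkhead factor, was likewise detected in every library. Its levels were 32.4, 61.7, 36.9 and 39.0 CPM in ADF+ENZ tumours, 70.4, 47.6, 53.8 and 49.0 in ADF, 63.1, 49.1, 47.0 and 50.6 in ENZ and 49.8, 40.5, 34.8 and 67.7 in Vehicle. All 4 groups overlapped. Foxa1 differed from Vehicle by a log2 fold change of -0.18 ± 0.219 in ADF+ENZ, 0.19 ± 0.218 in ADF and 0.12 ± 0.218 in ENZ, with adjusted p of 0.638, 0.621 and 0.816. One library decided the result in ADF+ENZ against ADF, where the log2 fold change was -0.37 ± 0.22 with an adjusted p of 0.253. Without ADF+ENZ replicate 2, at 61.7 CPM the highest of its group, it was -0.61 with an adjusted p of 0.0481.

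**Figure D3:**
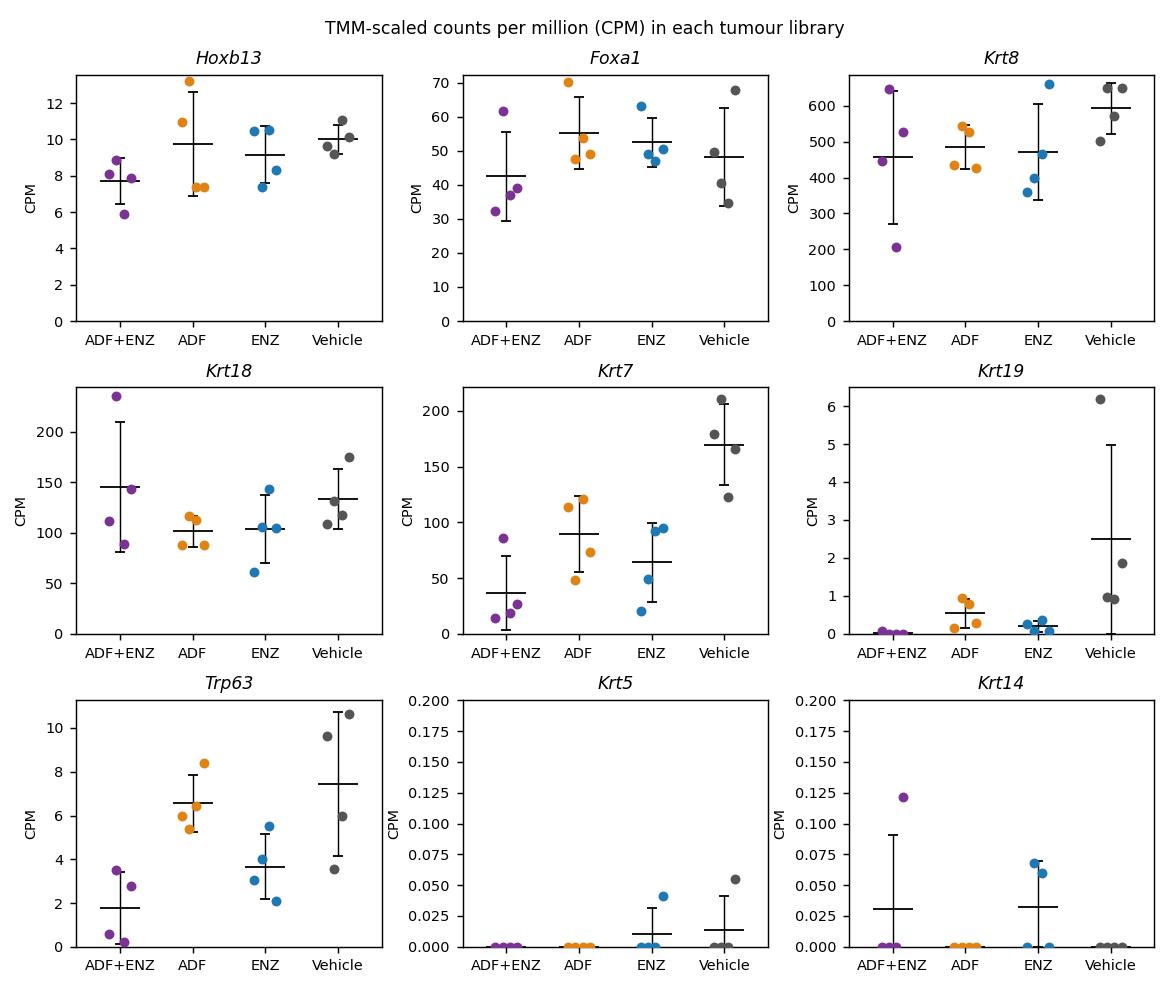
CPM (y axis, from 0) of each of the 9 genes in each tumour, with the group mean and SD (n = 4, bars stopped at 0). Krt7 lies at 122.5 CPM or more in every Vehicle tumour and below that in every other tumour, whereas Hoxb13, Foxa1, Krt8 and Krt18 show groups that largely overlap.

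Krt8, the main type II keratin of luminal cells, was the most abundant of the 9 genes. It measured 447, 646, 206 and 526 CPM in ADF+ENZ tumours, 436, 545, 528 and 427 in ADF, 360.5, 398.5, 465 and 661 in ENZ and 502, 649.6, 573 and 649.9 in Vehicle. The lowest value of all was that of ADF+ENZ replicate 3, and each treated group overlapped Vehicle. Log2 fold changes against Vehicle were -0.38 ± 0.27 in ADF+ENZ, -0.29 ± 0.27 in ADF and -0.33 ± 0.27 in ENZ, with adjusted p of 0.396, 0.527 and 0.539.

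Krt18, the type I partner of Krt8, measured 112, 235, 89.1 and 144 CPM in ADF+ENZ tumours, 88.4, 116, 113 and 88.1 in ADF, 61.4, 106, 143 and 105 in ENZ and 109, 131, 118 and 175.5 in Vehicle. Groups overlapped throughout, and ADF+ENZ had the widest range. Its log2 fold change against Vehicle was 0.13 ± 0.292 in ADF+ENZ, -0.39 ± 0.294 in ADF and -0.36 ± 0.293 in ENZ (adjusted p of 0.82, 0.425 and 0.544). The interaction estimate, 0.88 ± 0.416, was the largest of the tested genes relative to its error, but had an adjusted p of 0.246.

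The ratio of Krt8 to Krt18, in CPM per kb, describes the balance of the partner chains within a library and does not depend on library size. It was 2.93, 2.02, 1.7 and 2.68 in ADF+ENZ tumours, 3.62, 3.44, 3.43 and 3.56 in ADF, 4.31, 2.77, 2.38 and 4.63 in ENZ and 3.39, 3.63, 3.58 and 2.72 in Vehicle. Group means were 2.33 ± 0.57 in ADF+ENZ, 3.51 ± 0.0929 in ADF, 3.52 ± 1.11 in ENZ and 3.33 ± 0.42 in Vehicle (SD, n = 4). ADF+ENZ values lay below every ADF value and overlapped those of ENZ and Vehicle. This ratio was looked at after the values of its parts were known and was not tested.

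Krt7, a type II keratin of simple and glandular epithelia, was highest in Vehicle tumours. It measured 14.5, 85.9, 19.1 and 26.5 CPM in ADF+ENZ tumours, 114, 48.6, 121 and 73.7 in ADF, 20.9, 49.4, 92.0 and 94.6 in ENZ and 179.5, 211, 122.5 and 166 in Vehicle. No tumour of the treated groups reached the lowest Vehicle value, though ADF replicate 3 came close to it, at 120.6 against 122.5 CPM. Of 18946 genes tested, groups did not overlap with Vehicle for 3269 in ADF+ENZ, for 3126 in ADF and for 2271 in ENZ. Means were 36.5 ± 33.3 CPM in ADF+ENZ, 89.3 ± 34.1 in ADF, 64.2 ± 35.6 in ENZ and 169.7 ± 36.6 in Vehicle (SD, n = 4).

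Krt7 fell in ADF+ENZ against Vehicle, by 2.21 ± 0.588 (SE) on the log2 scale with an adjusted p of 0.0294. It did not pass in ENZ against Vehicle (-1.39 ± 0.567, adjusted p of 0.19) or in ADF against Vehicle (-0.93 ± 0.562, adjusted p of 0.317), although the groups did not overlap there. The call in ADF+ENZ against Vehicle was lost when any of 6 libraries was left out, with adjusted p of 0.0702, 0.0896 and 0.0694 without ADF+ENZ replicates 1, 3 and 4 and of 0.0529, 0.056 and 0.0569 without Vehicle replicates 1, 2 and 4, while the log2 fold change stayed between -1.95 and -2.22 in these fits. The average enzalutamide effect on Krt7 was -1.33 ± 0.405 (adjusted p of 0.0407). It passed without ADF replicate 2, ADF+ENZ replicate 2, ENZ replicate 1 or ENZ replicate 4, and without any one of the other 12 libraries the adjusted p was between 0.053 and 0.0803. Both Krt7 calls were also lost with no filter on low counts (adjusted p of 0.0549 in ADF+ENZ against Vehicle and 0.0798 on average) and with the share of reads outside features as a covariate (0.0507 and 0.535). The ADF+ENZ against Vehicle call was lost too in a fit of those groups alone (0.0668).

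Leaving out ADF+ENZ replicate 2, the library with 85.9 CPM, made the Krt7 estimates more negative. Without it, Krt7 passed in ADF+ENZ against ADF (-2.13, adjusted p of 0.0181), where the estimate with it was -1.28 ± 0.578 (adjusted p of 0.147). In limma-voom with quality weights, Krt7 passed in that comparison with all libraries kept (-1.72, adjusted p of 0.034). Without it the average fasting effect on Krt7 was -1.30 (adjusted p of 0.0485), against -0.87 ± 0.402 (adjusted p of 0.231) with it. The Krt7 estimate in ADF+ENZ against ENZ was -0.81 ± 0.575 (adjusted p of 0.54).

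As a share of the type II chains Krt7 and Krt8 together, in CPM per kb, Krt7 made up 0.89%, 3.56%, 2.5% and 1.38% in ADF+ENZ tumours, 6.78%, 2.42%, 5.96% and 4.57% in ADF, 1.58%, 3.33%, 5.21% and 3.82% in ENZ and 9.04%, 8.27%, 5.61% and 6.63% in Vehicle. Means were 2.08% ± 1.19 in ADF+ENZ, 4.93% ± 1.91 in ADF, 3.49% ± 1.5 in ENZ and 7.39% ± 1.55 in Vehicle (SD, n = 4). ADF+ENZ and ENZ shares lay below every Vehicle share, and ADF shares overlapped both ENZ and Vehicle. The size of these percentages depends on the exon length assigned to Krt7, but the order of the libraries does not. They are descriptions, with no test.

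**Figure D4:**
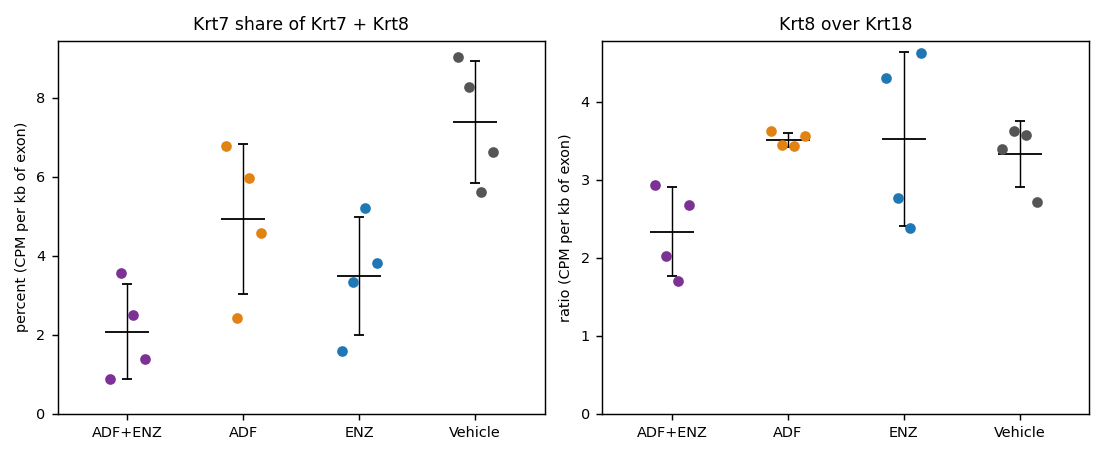
Krt7 as a percentage of Krt7 plus Krt8 (left) and the ratio of Krt8 to Krt18 (right), both in CPM per kb of exon, for each tumour with the group mean and SD (n = 4). The Krt7 share is lowest on average in ADF+ENZ tumours (2.08%) and highest in Vehicle tumours (7.39%), and the Krt8 to Krt18 ratio is lowest on average in ADF+ENZ tumours (2.33).

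Krt19, the smallest type I keratin and a partner of Krt8 in simple epithelia, was near the limit of detection. It had 1, 0, 0 and 0 counts in ADF+ENZ tumours, 2, 16, 10 and 4 in ADF, 3, 1, 6 and 2 in ENZ and 104, 17, 14 and 34 in Vehicle. Vehicle replicate 1 alone held 104 of the 214 counts. A count was present in 13 of 16 libraries, at least 10 counts in 6 and at least 1 CPM in 2. Every ADF+ENZ and ENZ tumour lay below every Vehicle tumour in CPM (at most 0.0817 and 0.361, against at least 0.916), whereas ADF replicate 2 (0.948 CPM) exceeded Vehicle replicate 3. Of 18946 genes tested, groups did not overlap for 3269 in ADF+ENZ against Vehicle and for 2271 in ENZ against Vehicle.

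Summed over each group and scaled to library size, the ratio for Krt19 was 0.00655 in ADF+ENZ over Vehicle (95% exact binomial interval 0.000165 to 0.037), which rests on 1 count against 169. It was 0.229 in ADF over Vehicle (0.152 to 0.335) and 0.0722 in ENZ over Vehicle (0.0366 to 0.13). These intervals cover counting error only. Without Vehicle replicate 1 the 3 ratios were 0.0128 in ADF+ENZ, 0.447 in ADF and 0.141 in ENZ.

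Because Krt19 entered the test only through Vehicle, its fitted values are given as a description. They were log2 -6.67 ± 1.08 in ADF+ENZ against Vehicle (adjusted p of 0.00126), -3.71 ± 0.739 in ENZ against Vehicle (0.00799) and -4.12 ± 0.736 for the average enzalutamide effect (0.00214). With no filter on low counts the adjusted p of these were 0.00403, 0.0265 and 0.00659. With the share of reads outside features as a covariate, the average enzalutamide effect was -2.96 with an adjusted p of 0.328. A fitted value for so few counts depends on the prior count of the model, which the count ratios do not use. DESeq2 gave Krt19 no adjusted p in ENZ against Vehicle.

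The remaining Krt19 values were close to the threshold. In ADF against Vehicle the log2 fold change was -2.14 ± 0.632 (adjusted p of 0.0447, or 0.109 with no filter). The adjusted p became 0.0946, 0.073 and 0.131 without ADF replicates 1, 3 and 4, and 0.147 and 0.0537 without Vehicle replicates 1 and 4. Without Vehicle replicate 1 the log2 fold change was -1.17. In ADF+ENZ against ADF it was -4.54 ± 1.34 (adjusted p of 0.0314). That p was 0.0867 with no filter and 1 with the covariate, and the value passed again only without ADF replicate 1, with adjusted p between 0.0524 and 0.0879 without each of the other 7 libraries. With 1 count in ADF+ENZ against 12 in ENZ, the adjusted p was 0.392.

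Trp63, which encodes the basal transcription factor p63, was detected in every library although the basal keratins were not. It measured 0.572, 3.52, 0.219 and 2.79 CPM in ADF+ENZ tumours, 6.00, 5.39, 6.46 and 8.39 in ADF, 3.04, 4.03, 5.53 and 2.08 in ENZ and 9.63, 3.54, 5.96 and 10.7 in Vehicle. Its 2 lowest libraries, ADF+ENZ replicates 3 and 1, held 2 and 7 counts. The ADF+ENZ values lay below every ADF and every Vehicle value, though only narrowly below Vehicle replicate 2 (3.52 against 3.54 CPM), and overlapped those of ENZ. Of 18946 genes tested, groups did not overlap for 3889 in ADF+ENZ against ADF and for 3269 in ADF+ENZ against Vehicle. Gene-level counts do not separate the transcripts of Trp63, of which 8 coding ones are annotated, so the isoforms of p63 were not distinguished.

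Trp63 fell in ADF+ENZ against Vehicle by 1.94 ± 0.529 on the log2 scale (adjusted p of 0.0286). The adjusted p was 0.0631 and 0.0559 without ADF+ENZ replicates 1 and 3, and 0.0623 and 0.0761 without Vehicle replicates 1 and 4, with log2 fold changes of -1.67, -1.65, -1.80 and -1.71. It also fell in ADF+ENZ against ADF, by 1.75 ± 0.534 (adjusted p of 0.0388), a call kept only without ADF+ENZ replicate 2 or 4 and at an adjusted p between 0.051 and 0.108 without each of the other 6 libraries. The average enzalutamide effect on Trp63 was -1.39 ± 0.365 (adjusted p of 0.0204) and passed without any one of the 16 libraries. With the share of reads outside features as a covariate, which is confounded with ADF, it was -0.54 (adjusted p of 0.802), and with no filter on low counts its adjusted p was 0.0539. With that covariate the estimate in ADF+ENZ against ADF was -0.17 (adjusted p of 1), and in ADF+ENZ against Vehicle it was -1.59 (0.0618). These pairwise calls were also lost with no filter (adjusted p of 0.0998 against ADF and 0.0749 against Vehicle) and in a fit of the compared groups alone (0.0615 and 0.098). Trp63 did not pass in ENZ against Vehicle (-1.03 ± 0.498, adjusted p of 0.267) or in ADF against Vehicle (-0.19 ± 0.482, adjusted p of 0.844), and whether the drug effect differed between the diets was not resolved (interaction -0.72 ± 0.727, adjusted p of 0.605).

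Krt5 and Krt14, the keratin pair of basal cells, were all but undetected. Krt5 had 2 counts in the whole series, 1 in ENZ replicate 4 and 1 in Vehicle replicate 4. Krt14 had 5 counts, of which 3 were in ADF+ENZ replicate 4 and 1 each in ENZ replicates 2 and 3. Krt8 and Krt18 together had 162540 counts in the same libraries, against 7 for the basal pair. In the ADF group, where neither basal keratin had a count, 3 counts over the group would correspond to 0.0535 CPM, which is the level below which a gene could have gone unseen at this depth. No fold change is given for either gene.

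Some of these genes share sequence with others, between which the counting could have split reads. The processed pseudogene Krt8-ps holds 32.2% of the 31-base words of Krt8 transcripts and had 797 counts, against 131278 for Krt8 itself. Gm36026, a long noncoding RNA gene on the strand opposite Krt8, had 4003 counts and shared 3.73% of those words. Pseudogene Gm5200 shares 9.31% of the words of Krt18 and had 2 counts, and antisense gene Gm671 shares 0.679% of those of Krt7 and had 113. Whether counting was strand-specific is stated in neither the labels nor the processing notes, so reads of genes on opposite strands may not be told apart. Krt14 shares 17.6% of its words with Krt16 and Krt5 shares 9.46% with Krt6a, and these relatives had 46 and 34 counts.

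Across the 16 libraries, log2 CPM of Krt7 and Trp63 moved together with a Pearson r of 0.738 and a Spearman rho of 0.676. Within groups, after each group's mean was removed, r was 0.45, and without ADF+ENZ replicate 3 it was 0.697 over the remaining 15 libraries. Krt8 and Krt18 had r of 0.613, or 0.736 within groups. Krt8 and Krt7 had r of 0.635, or 0.546 within groups, and Hoxb13 and Foxa1 had 0.313. These libraries share treatment groups and composition, so the values are descriptions and carry no p.

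Among 16134 genes with a mean of at least 1 CPM, those whose log2 CPM followed Trp63 most closely over the 16 libraries were Fmo2 (r of 0.963), Mgat4a (0.934) and Prelp (0.924). For Krt7 they were Gldc (0.895), Gm35853 (0.882) and Rdh11 (0.872). Foxa1 was followed by Rbm12b2 (0.918), Clca1 (0.881) and Acer3 (0.821), and Hoxb13 by Nvl (0.848), Dusp28 (0.846) and E2f6 (0.805). The closest to Krt8 were Gm8318 (0.86), Hmces (0.84) and Dgka, and the closest to Krt18 were Gm6793 (0.811), Edem3 (0.807) and Trak2 (0.77). No member of the 9 appeared among the 3 nearest genes of another, the partners Krt8 and Krt18 included.

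Of 28 further lineage transcription factors listed for prostate and glandular epithelium, 18 were tested. Of these, 2 rose and 5 fell in ADF+ENZ against Vehicle, where 12.5% of all genes passed, with a list median of -0.10 beside 0.00 for all tested genes. Klf5, a Krüppel-like factor of epithelial progenitors, fell in ADF+ENZ (log2 -1.09, adjusted p of 0.003), in ADF (-0.89, 0.0138) and in ENZ (-0.97, 0.00982) against Vehicle. Ehf, an epithelial ETS factor, is among the 5 that fell. Like Krt19, it passed the filter on counts only through its Vehicle level and so had to differ. It measured at least 1.05 CPM in Vehicle (mean 1.57), and at most 0.647 in ADF+ENZ, 0.560 in ADF and 0.626 in ENZ. Its fitted values against Vehicle, given as a description, were log2 -2.45, -1.85 and -2.16 in ADF+ENZ, ADF and ENZ. Sox4 rose in ADF+ENZ against Vehicle (0.82, adjusted p of 0.000503), against ADF (0.77) and against ENZ (0.66). Tfcp2l1, a grainyhead-related factor of ductal epithelium, fell by 3.55 in ENZ against Vehicle, with means of 3.18 ± 3.06 CPM in ENZ and 38.0 ± 18 in Vehicle (SD, n = 4). Lineage factors outside the 9 genes thus passed in comparisons where Hoxb13 and Foxa1 did not, and that difference between genes was not itself tested.

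Of 15 luminal surface and secretory genes 6 were tested, and 2 of these fell in ADF+ENZ against Vehicle, where 12.5% of all genes passed. Ppp1r1b, which encodes a phosphatase inhibitor, fell by 3.16, 1.68 and 2.57 on the log2 scale in ADF+ENZ, ADF and ENZ against Vehicle, and Steap2, a metalloreductase of the prostate, fell by 0.43 in ADF+ENZ and by 0.62 in ENZ against Vehicle. Of 18 further basal genes 11 were tested. Among those, Itga6, a basal integrin, fell by 0.65 in ADF+ENZ against Vehicle, Lama3, a laminin chain of the basement membrane, fell by 1.37 in ENZ against Vehicle, and Col17a1 and Dst, both parts of hemidesmosomes, rose by 0.73 and 0.48 in ADF against Vehicle. In ADF+ENZ against Vehicle 1 of the 11 fell and none rose, with a median of -0.24, where 12.5% of all genes passed. Itgb4, a hemidesmosome integrin, fell by 0.44 in ADF+ENZ against ADF, where 16.3% passed. For the average enzalutamide effect 4 of the 11 fell, where 17.3% passed, namely Lama3 (-0.97), Jag1 (-0.53), Itga6 (-0.42) and Itgb4 (-0.30).

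Keratin filaments end at desmosomes and hemidesmosomes, and 9 of 13 genes for these anchors were tested. Those that rose in ADF+ENZ against Vehicle were Pkp3 (log2 0.79), a plakophilin, and Plec (0.52), the linker of filaments to hemidesmosomes, whereas Dsp (-1.45), which encodes desmoplakin, fell, so that 3 of the 9 passed where 12.5% of all genes did. Plec also rose in ADF against Vehicle (0.59) and in ADF+ENZ against ENZ (0.70), with means of 2842 ± 207 CPM in ADF+ENZ, 2988 ± 69.8 in ADF, 1745 ± 57.8 in ENZ and 1988 ± 187 in Vehicle (SD, n = 4). Of 23 epithelial junction genes 15 were tested, and 2 passed in ADF+ENZ against Vehicle, where 12.5% of all genes passed. Cldn1, a tight junction claudin, fell by 1.55 in ENZ against Vehicle and by 0.91 in ADF+ENZ against ADF, and its means were 19.4 ± 5.07 CPM in ADF+ENZ, 36.3 ± 7.18 in ADF, 10.1 ± 2.25 in ENZ and 29.4 ± 7.51 in Vehicle (SD, n = 4).

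Mesenchymal and neuroendocrine genes were set beside these. Of 11 tested mesenchymal genes 1 passed in ADF+ENZ against Vehicle, S100a4, with a log2 fold change of 0.85, where 12.5% of all genes passed. Fn1, the fibronectin gene, fell by 1.07 in ENZ against Vehicle (adjusted p of 0.00207) and rose by 0.89 in ADF+ENZ against ENZ (adjusted p of 0.025), with an interaction of 1.36 (adjusted p of 0.0126). Of 13 neuroendocrine genes 5 were tested, and Syp (-1.43) and Sox2 (0.51) passed in ADF+ENZ against ADF, where 16.3% of all genes passed.

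**Figure D5:**
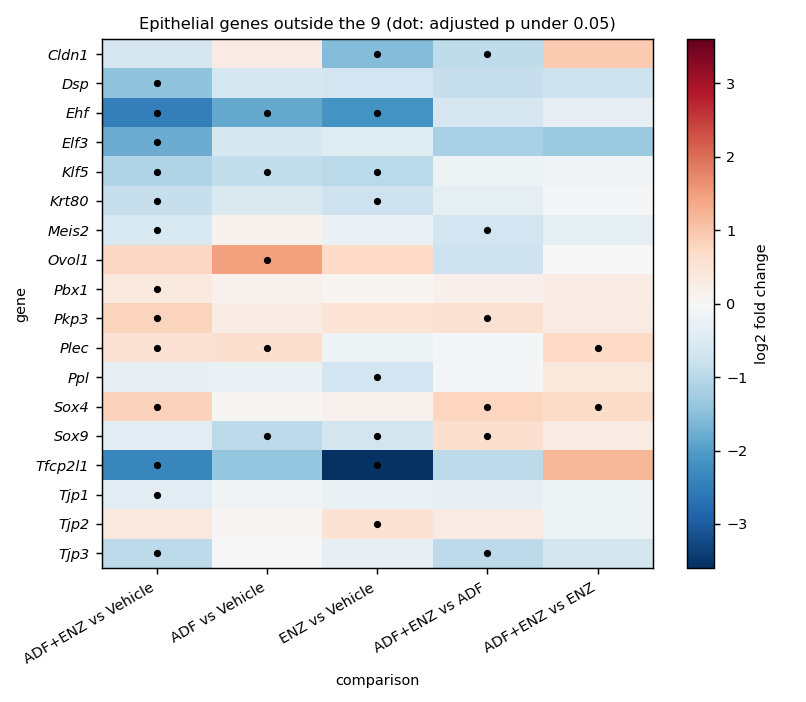
Log2 fold change (colour) of the 18 lineage factor, junction, filament anchor and keratin genes outside the 9 that passed in at least 1 of 5 pairwise comparisons (columns). Dots mark an adjusted p under 0.05. Klf5 is lower in each comparison with Vehicle, as is Ehf, which entered the test only through Vehicle and so had to differ. Sox4 and Plec are higher in ADF+ENZ tumours than in ENZ tumours.

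Of 48 other keratin genes 6 had enough counts to be tested. Krt80, a type II keratin, was the most abundant, with means of 19.8 ± 6.27 CPM in ADF+ENZ, 24.6 ± 6.16 in ADF, 20.8 ± 3.92 in ENZ and 35.0 ± 4.3 in Vehicle (SD, n = 4). It fell in ADF+ENZ (log2 -0.83, adjusted p of 0.017) and in ENZ (-0.75, adjusted p of 0.0453) against Vehicle, and it was the only 1 of the 6 to pass in either comparison, where 12.5% and 5.43% of all genes passed. Krt76 and Krt87 passed, both lower, for the average enzalutamide effect (-3.35 and -1.09), Krt76 at a mean of only 0.965 CPM. Krt10 and Krt20 averaged 4.29 and 1.03 CPM and passed in none of the 8 comparisons.

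Because the tumours grew under the skin, markers of skin and of other host cells were measured beside the keratins. Of 16 epidermal markers 15 were in the table, and 5 of them, Krt1, Krt2, Flg, Flg2 and Ivl, had 0 counts in every library. Their summed level was 31.3 to 37.3 CPM in ADF+ENZ, 34.1 to 38.4 in ADF, 28.7 to 48.5 in ENZ and 17 to 38.0 in Vehicle. The list includes Trp63, Krt5 and Krt14. Lgals7, a galectin of stratified epithelia on this list, averaged 26.1 ± 1.98 CPM in ADF+ENZ, 21.9 ± 2.67 in ADF, 26.0 ± 7.89 in ENZ and 12.8 ± 4.87 in Vehicle (SD, n = 4). It rose against Vehicle in all 3 treated groups, by 1.04, 0.78 and 1.02 on the log2 scale in ADF+ENZ, ADF and ENZ (adjusted p of 0.00783, 0.0406 and 0.015). Sbsn, also on this list, averaged 1.62 CPM in ADF+ENZ, 2.68 in ADF, 1.90 in ENZ and 2.92 in Vehicle. Of the 4 epidermal markers tested, 1 rose and 1, Trp63, fell in ADF+ENZ against Vehicle, where 12.5% of all genes passed. For the average enzalutamide effect 1 rose and 2 fell, where 17.3% passed. Hair follicle markers summed to at most 1.43 CPM in any library. Fibroblast markers summed to 11800 to 13700 CPM in ADF+ENZ, 9180 to 12800 in ADF, 9710 to 10800 in ENZ and 11200 to 13000 in Vehicle, so that the ENZ sums lay below every Vehicle sum. Of 9 macrophage markers 2 fell and 0 rose in ADF+ENZ against Vehicle, where 12.5% of all genes passed. Those that fell were Adgre1 (-0.63) and Fcgr1 (-0.43), while the means of Mrc1 and C1qc were slightly higher in ADF+ENZ. Macrophage sums were 1180 to 1560 CPM in ADF+ENZ and 1300 to 1810 in Vehicle. The part of host cell content in the keratin differences was not tested.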

How the data were processed

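Paired-end RNA-seq of total RNA was analysed for 16 tumours in 4 groups of 4. The deposited table holds whole-number counts per Ensembl gene ID, as deposited by the authors. Per the submitters' processing notes the tools, listed without versions, were featureCounts, HISAT2, Trim Galore and DESeq2, and mm39 and GRCh38 were the builds, neither given a role. Replicates were not pooled. Its 5 entries for unassigned reads (in no feature, 21.2% to 36.7% of reads) stayed out of the tests. Replicates were numbered in accession order, and no pair of replicates agreed within counting noise (chi-square per degree of freedom of at least 5.53).

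Symbols (52133 of 55414 IDs), classes, lengths, chromosomes and the transcript sequences compared for shared words came from GENCODE M21 on GRCm38. Promoter windows came from RefSeq GRCm38.p6.

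All libraries entered one robust quasi-likelihood fit in edgeR 4.0.16 (R 4.3.3) with TMM scaling and filterByExpr (minimum count 10, total 15), which left 18946 genes. Benjamini-Hochberg adjustment was made separately for each of 8 contrasts, and tests are two-sided. Log2 CPM used a prior count of 2, and the floor was 3 counts per group. Alternatives were DESeq2 1.42.0, its size factors within edgeR, limma-voom (limma 3.58.1) with quality weights, no filter, at least 1 CPM in 4 libraries, only the groups compared, the share of reads outside features as a covariate, and each library left out. Figures used matplotlib 3.10.9, intervals scipy 1.17.1. The pipeline was tested on simulated data.

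The members, lists and tests were chosen with earlier results of these data known. Named genes were the 9 members, up to 4 genes per list and comparison that passed (smallest p first), the 3 genes most correlated with each member of at least 1 CPM, and other keratins that passed or averaged at least 1 CPM. Markers of prostate origin and of host cells, and genes that share sequence, were named in addition, after their values were seen. Some prostate markers are not reported here.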

Additional observations from a re-analysis of the deposited data

Results flagged for a closer look

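In a test for a single value far from the rest of its group of 4, 2 of 28 combinations of gene and group stood out, and chance flags about 1 in 20. Krt7 in ADF+ENZ replicate 2 was 85.9 CPM, where the nearest other tumour of its group had 26.5 CPM. Krt19 in ADF+ENZ replicate 1 was 0.0817 CPM, where the other 3 tumours of its group had none, a difference of 1 count.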

How the results depend on the processing

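The number of the 9 genes called, here with Krt19 included, changed as follows. The cause was not tested except where a gene was no longer tested. At a filter of at least 1 CPM in 4 libraries Krt19 was not tested, which left 0 for ADF against Vehicle, 0 for ENZ against Vehicle and 1 for ADF+ENZ against ADF. With no filter the counts were 1 for ADF+ENZ against Vehicle, 0 for ADF against Vehicle, 0 for ADF+ENZ against ADF and 1 for the average enzalutamide effect. With only the groups compared they were 1, 0 and 0 for those 3 pairs. With the share of reads outside features as a covariate, which is confounded with ADF, they were 1, 0, 0 and, for the average enzalutamide effect, 0. Each count of 1 with no filter, with only the groups compared or with the covariate was Krt19 alone. That gene entered the test only through Vehicle. In limma-voom 0 were called for ADF against Vehicle, and Krt7 was called in addition for ADF+ENZ against ADF. In DESeq2 0 were called for ENZ against Vehicle, where it gave Krt19 no adjusted p. Leaving out 1 library gave 1 to 3 genes for ADF+ENZ against Vehicle and 0 to 1 for ADF against Vehicle. It gave 0 to 3 for ADF+ENZ against ADF and 0 to 1 for the average fasting effect. The 3 genes for ADF+ENZ against ADF were Foxa1, Krt7 and Trp63, without ADF+ENZ replicate 2. Where the count was 1 for ADF+ENZ or for ADF against Vehicle, the gene was again Krt19. Of 973 alternatives over 56 gene results, 909 kept their side of the threshold, 60 lost a call, 4 gained one and 0 reversed a called direction. Most of the 56 results were not called in the main fit, so the 909 are mainly results that stayed uncalled. The 60 losses all fall on the minority that were called. Over the whole table, the number of genes called ranged over settings other than leaving out a library from 1579 to 2852 for ADF+ENZ against Vehicle (2369 in the main fit), from 6 to 2358 for ADF against Vehicle (1707), from 755 to 1655 for ENZ against Vehicle (1028), from 43 to 693 for ADF+ENZ against ENZ (206), from 0 to 4444 for ADF+ENZ against ADF (3081), from 27 to 4903 for the average enzalutamide effect (3278), from 542 to 1593 for the average fasting effect (958) and from 0 to 1363 for the interaction (587). No paired analysis was possible because the labels give the groups no shared replicate numbers. Depth limits Krt19, Krt5 and Krt14, and with 4 libraries a group a difference that did not pass is not shown to be absent.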
